A study of Mus musculus with 2 samples.

Results

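The genes described here are 10 of the 31053 genes in the count files, taken by their symbols: the transcription regulators Gata1, Gata2, Klf1 and Zfpm1, the carbonic anhydrases Car1 and Car2, the adult β globins Hbb-bt and Hbb-bs, and the adult α globins Hba-a1 and Hba-a2. They were measured by single-cell RNA sequencing in mouse AE9a leukemia, in which fetal liver cells carry a retrovirus that encodes the AML1-ETO9a fusion together with GFP. By genotype the leukemia was Usp18+/f with a Cre that tamoxifen activates in all tissues, and it had been passed to sub-lethally irradiated C57BL/6 recipients. Recipients were injected with oil in the group labelled Usp18+/f or with tamoxifen in the group labelled Usp18+/Δ, so that all cells shared the floxed allele, the Cre and the fusion, and no group received tamoxifen without the floxed allele. GFP+ Lin- c-Kit+ splenocytes of 3 mice were pooled per group 3 days after the first injection, and each pool gave 1 library.

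GATA2 and GATA1 are zinc finger factors that follow each other at shared target sites as blood progenitors become red cell precursors, FOG1 (the product of Zfpm1) is the cofactor that GATA1 binds, and KLF1 is the erythroid factor that binds CACCC boxes, among them that of the adult β globin gene. Carbonic anhydrases interconvert carbon dioxide and bicarbonate. CAR1 and CAR2 are among the major soluble proteins of red cells, and both genes are turned on before the bulk of globin is made. The α and β chains form hemoglobin, and their RNA is so abundant in red cells and late precursors that lysed cells can release it into the suspension, from where it may enter droplets of other cells.

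In GRCm38 (GENCODE vM21), Gata1 lies on chromosome X (7959260 to 7978071, minus strand), Gata2 on chromosome 6 (88193891 to 88207032, plus strand), and Klf1 (84901928 to 84905291) and Zfpm1 (122282141 to 122337251) on the plus strand of chromosome 8. Car1 (14766216 to 14808368, minus strand) and Car2 (14886273 to 14900770, plus strand) are both on chromosome 3. Hbb-bt (103812524 to 103813996) and Hbb-bs (103826534 to 103828096) are on the minus strand of chromosome 7, and Hba-a1 (32283511 to 32284465) and Hba-a2 (32296489 to 32297298) on the plus strand of chromosome 11. The 250 bases before the RefSeq start site (GRCm38.p6, 5′ to 3′ on the gene's strand) are shown for both β globins and for Hba-a2, since the globins were the genes whose UMIs gathered in the same cells, and for Klf1 as a regulator spread over the cells far more evenly. Capitals mark GATA motifs (AGATAA or TGATAA), the CACCC box, the CCAAT box and the TATAA box on either strand, and adjoining matches run together.
Hbb-bt, chr7:103813924-103814173: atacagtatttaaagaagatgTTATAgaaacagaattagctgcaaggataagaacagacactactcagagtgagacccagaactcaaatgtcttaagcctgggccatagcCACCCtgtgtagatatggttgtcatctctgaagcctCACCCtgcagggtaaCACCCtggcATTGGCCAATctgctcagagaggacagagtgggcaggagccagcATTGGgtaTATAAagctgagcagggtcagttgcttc
Hbb-bs, chr7:103827929-103828178: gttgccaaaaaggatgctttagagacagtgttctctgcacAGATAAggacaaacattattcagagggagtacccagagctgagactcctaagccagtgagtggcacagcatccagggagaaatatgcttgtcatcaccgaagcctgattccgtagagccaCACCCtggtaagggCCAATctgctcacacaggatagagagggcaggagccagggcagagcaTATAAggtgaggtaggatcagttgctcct
Hba-a2, chr11:32296242-32296491: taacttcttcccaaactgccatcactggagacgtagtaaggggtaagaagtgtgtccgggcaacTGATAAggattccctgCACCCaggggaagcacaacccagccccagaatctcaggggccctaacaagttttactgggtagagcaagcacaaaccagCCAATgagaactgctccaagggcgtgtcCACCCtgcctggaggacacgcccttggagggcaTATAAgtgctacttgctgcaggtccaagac
Klf1, chr8:84901732-84901981: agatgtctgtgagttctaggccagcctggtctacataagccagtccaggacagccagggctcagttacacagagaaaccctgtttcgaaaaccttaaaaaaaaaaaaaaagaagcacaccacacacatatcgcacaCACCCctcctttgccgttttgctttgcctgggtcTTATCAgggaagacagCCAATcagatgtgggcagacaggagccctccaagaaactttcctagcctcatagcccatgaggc

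Promoter entries were found for 8 of the 10 genes. All 4 globin promoters held the CACCC box, the CCAAT box and TATAA, with TATAA beginning 27 to 30 bases before the start site. Klf1 held the CACCC and the CCAAT box, and TGATAA on the opposite strand. AGATAA or TGATAA was found in Hbb-bs, Hba-a1, Hba-a2 and Klf1 and not in the windows of Hbb-bt, Gata1, Gata2 or Zfpm1. Among all 32851 promoter windows of this length, 52.0% held CACCC, 33.9% CCAAT, 22.8% TATAA and 16.6% AGATAA or TGATAA. The matches are letters in a window and were not tested as sites.

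The copies within each globin pair are alike, which bears on how reads were split between them. Over the annotated transcripts, 592 bases of Hbb-bs and Hbb-bt aligned as identical, 94.3% of the shorter transcript, and 537 bases of Hba-a1 and Hba-a2, 96.9% of the shorter. Of the 50-base windows in the last 300 bases, where 3′ reads fall, 36.3% of Hbb-bt windows were also in Hbb-bs, while 80.1% of Hba-a1 windows were also in Hba-a2. A read from a shared window cannot be assigned to 1 copy, so levels of single α globin genes are uncertain and the sum of both is given beside them.

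The library labelled Usp18+/f held 7281 barcodes and 63690481 UMIs (unique molecular identifiers, each counting 1 captured RNA molecule), and the library labelled Usp18+/Δ held 7833 barcodes and 65146263 UMIs. After filtering, 6546 and 7073 cells with medians of 8576 and 8023 UMIs were kept. Wherever a pair of values follows, the former belongs to the library labelled Usp18+/f and the latter to that labelled Usp18+/Δ, and log2 ratios between libraries are of the latter over the former. The targeted gene, Usp18, went against its label, with 330 and 1434 UMIs and a log2 ratio of 2.08 (1.91 to 2.26), and a 3′ tag does not show whether a deleted exon is missing. The sorted cells carried Kit (96.8 and 102 CPM, UMIs per 1000000 UMIs of the library), but Ptprc, the gene of the leukocyte antigen CD45, had only 9 and 14 UMIs. Summed mast cell and basophil markers were at 1914 and 2048 CPM, and 8 of the 12 reached 5 CPM. Macrophage markers summed to 8.09 and 16.6 CPM. Neutrophil markers were at 0.0344 and 22.6 CPM, where 1 cell held 592 of the 604 S100a9 UMIs. Lymphocyte and eosinophil markers were below 1 CPM. The only group of 50 or more cells per library that was led by markers of a listed cell type was mast cell-like (cluster 3 below). Mast cells share Gata1 and Gata2 but are not known for globin, yet that group had the highest globin level, so no group gave a background level for free RNA, and empty droplets were not analysed here. The sort itself removed cells with lineage antigens, Ter119 of late red cell precursors among them, and red cells had been lysed before it.

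The 4 regulators were present at moderate levels in both libraries, the carbonic anhydrases and most globins at high ones. Gata1 was at 142 and 133 CPM, Gata2 at 203 and 184 CPM, Klf1 at 164 and 142 CPM, and Zfpm1 at 43.1 and 50.3 CPM. Car1 was at 1892 and 1992 CPM, which placed it 91st by mean CPM of the 31053 genes, and Car2 was at 700 and 634 CPM. Hbb-bs, at 2066 and 2192 CPM, was the most abundant of the 10 and ranked 85th. Hba-a1 followed at 1053 and 919 CPM, Hbb-bt at 597 and 784 CPM and Hba-a2 at 168 and 175 CPM. These 3′ UMI levels count molecules and were not divided by gene length, and genes differ in how well they are captured, so the order of the genes is only a rough one.

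**Figure D1:**
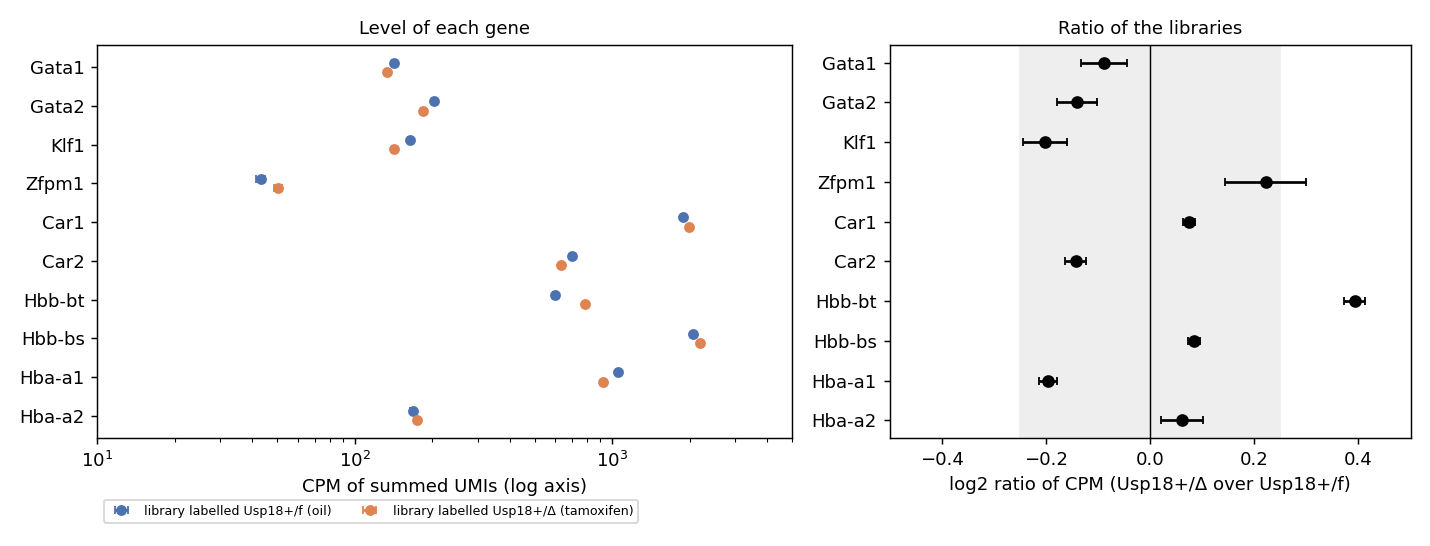
Left, level of each gene in the 2 libraries as CPM of summed UMIs on a log axis; right, log2 ratio between them (Usp18+/Δ over Usp18+/f), with the band of ±0.25 shaded. Bars are exact 95% intervals for counting error, mostly smaller than the points; Hbb-bt at 0.39 is the only gene outside the band.

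The libraries were compared first by summed UMIs. A single library stood for each group, so no spread between replicates and no test could be had: intervals are exact 95% intervals that cover counting error only, not the differences between mice, pools or captures. Hbb-bt was higher in the library labelled Usp18+/Δ by a log2 ratio of 0.39 (0.37 to 0.41), the only 1 of the 10 genes past 0.25 in either direction. This call rested on which cells were summed: Hbb-bt was at 0.10 with clusters weighted alike in both libraries, where Gata2 (-0.26) and Hba-a1 (-0.37) were past 0.25 instead, at -0.09 (-0.13 to -0.04) in cells of 12000 or more UMIs, and at 0.56 as a mean of per-cell CPM. In cells of 1500 to under 3000 UMIs Hbb-bt was at 1.47 (1.35 to 1.59), and under 1500 UMIs at 3.56 (3.13 to 4.01). At a limit of 5% mitochondrial UMIs, which kept few cells, it was at 1.41. There Gata2 (0.24) and Car1 (-0.046) had the opposite direction to that given next. Of the 8879 genes that averaged 5 CPM or more, 7.6% were past 0.25, 5.29% higher and 2.31% lower, and the median gene was at 0.01. Against that background 1 gene of 10 is close to the share of all genes. The regulators were split in direction: Klf1 was lower by a log2 ratio of -0.20 (-0.24 to -0.16), Gata2 by -0.14 (-0.18 to -0.10) and Gata1 by -0.09 (-0.13 to -0.04), while Zfpm1 was higher by 0.22 (0.14 to 0.30). The anhydrases also went opposite ways, Car1 at 0.07 (0.06 to 0.09) and Car2 at -0.14 (-0.16 to -0.12). Over the 10 genes, 5 were higher and 5 lower, each with an interval that excluded 0, and their median log2 ratio was -0.01.

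Over all cells the globin chains went opposite ways, but not in every subset. The summed β globins were at 2663 and 2976 CPM, a log2 ratio of 0.16 (0.15 to 0.17), and the summed α globins at 1220 and 1094 CPM, a log2 ratio of -0.16 (-0.17 to -0.14). Within the β pair, Hbb-bs had a log2 ratio of 0.08 (0.07 to 0.10), and within the α pair Hba-a1 had -0.20 (-0.21 to -0.18) and Hba-a2 0.06 (0.02 to 0.10). The 4 genes together were at 3884 and 4070 CPM, a log2 ratio of 0.07 (0.06 to 0.08). With clusters weighted alike both chains had log2 ratios below 0, -0.057 for β and -0.34 for α, and so they had in cells of 12000 or more UMIs (-0.19 and -0.44). In cells of 1500 to under 3000 UMIs both were higher (0.69 and 0.13). At a limit of 5% mitochondrial UMIs the α globins were at 0.95, with Hba-a1 at 0.90 and Hba-a2 at 1.19. The β globins were at 1.34 there and Hbb-bs at 1.31. Hbb-bs and Hba-a2 were below 0 with clusters weighted alike (-0.11 and -0.13) and without the 1% of cells with most globin (-0.024 and -0.18). The direction of the sum of all 4 was the opposite when the 1% of cells with most globin were left out (-0.047) and in cells of at least 6000 UMIs (-0.018).

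Against the share of cells expected, Gata1, Klf1 and Zfpm1 fell little short, Gata2 and the anhydrases more, and the globins far more. This gap shrinks where a gene has few UMIs per cell, so it does not order the regulators and anhydrases by evenness. To compare shares at 1 depth, every cell with at least 3000 UMIs was thinned to 3000, which left out 456 and 350 shallower cells, and the observed share was set beside the share expected if the same UMIs fell on all cells alike. Gata1 was seen in 33.7% (95% Clopper-Pearson interval 32.5 to 34.9) and 32.1% (31.0 to 33.2) of the thinned cells, against 34.0% and 32.6% expected. Klf1 was seen in 37.2% and 33.1% against 38.2% and 34.1%, and Zfpm1 in 11.8% and 13.3% against 12.5% and 14.1%. Gata2 lay further below, with 43.1% and 40.1% against 48.0% and 43.6%. Car1 was seen in 95.6% and 96.3% of the thinned cells against 99.6% and 99.7%, and Car2 in 79.8% and 74.3%, against 87.3% and 84.3% for Car2. Without thinning, Gata1 was seen in 64.8% and 60.7% of cells, Gata2 in 72.4% and 69.6%, Klf1 in 68.2% and 61.9%, Zfpm1 in 27.3% and 30.1%, Car1 in 97.2% and 97.1%, and Car2 in 92.5% and 88.4%.

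How many of the regulators were seen in a cell depended on depth. Without thinning, only 5.85% and 5.39% of cells had no UMI of any of the 4, 12.5% and 11.1% had UMIs of all 4, and 99.7% and 99.4% had a UMI of a regulator or an anhydrase. In cells thinned to 3000 UMIs, 20.8% and 23.6% had no regulator UMI, 42.0% and 42.3% had UMIs of exactly 1 regulator, and 0.673% and 0.640% of all 4. After thinning, the variance over the mean of the counts per cell was 1.04 and 1.05 for Gata1, 1.07 in both libraries for Klf1, 1.13 and 1.14 for Zfpm1, and 1.37 and 1.30 for Gata2, where UMIs that fall on cells at random give a value near 1. It was 2.11 and 2.34 for Car1 and 1.83 and 2.03 for Car2. This value also nears 1 when the mean is low: thinned cells averaged 0.13 and 0.15 Zfpm1 UMIs, against 5.58 and 5.94 of Car1. No order of evenness among the regulators and anhydrases is therefore read from it.

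The globins were seen in far fewer cells than their abundance allows. In the thinned cells Hbb-bs was seen in 52.3% and 48.0%, against nearly all cells expected. Hbb-bt was seen in 33.2% (32.0 to 34.4) and 31.5% (30.4 to 32.6) against 88.8% and 93.9%, Hba-a1 in 65.0% and 56.0% against 97.4% and 96.1%, and Hba-a2 in 24.8% and 20.4% against 43.9% and 45.3%. The variance over the mean ran from 12.0 for Hba-a2 to 128 for Hbb-bs over both libraries. For the summed globins the share of thinned cells was 84.8% and 78.9% although their CPM went the other way, so no order of the libraries is read from the shares.

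**Figure D2:**
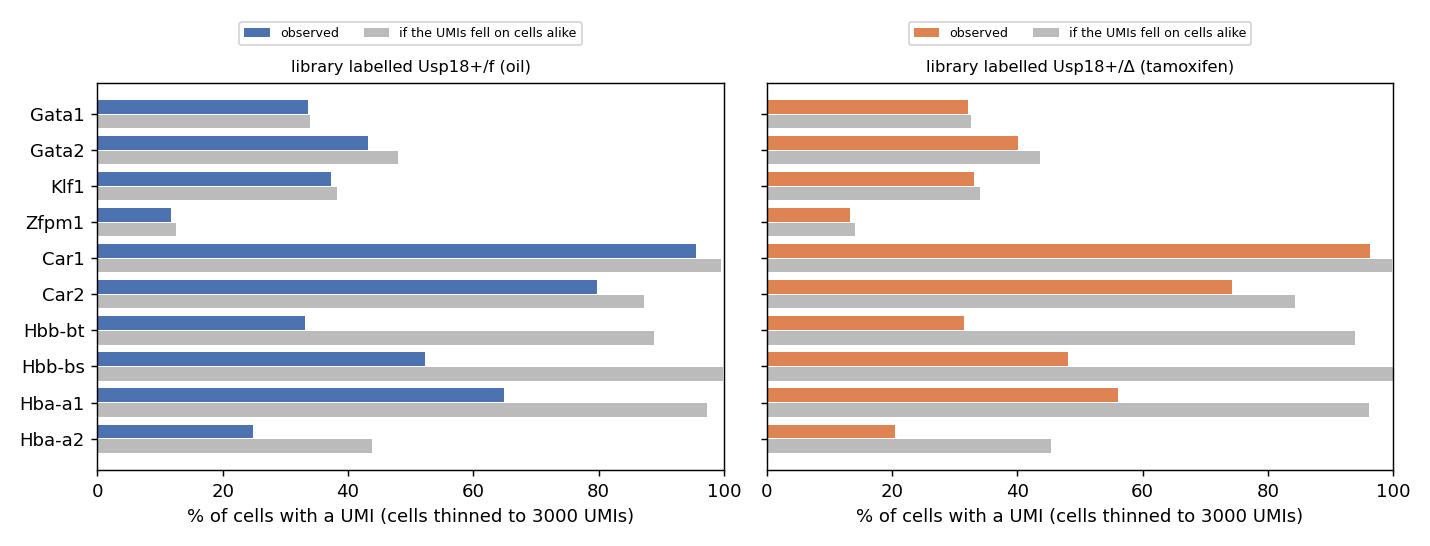
Percent of cells with a UMI of each gene after thinning each cell to 3000 UMIs (coloured bars), beside the percent expected if the same UMIs fell on all cells alike (grey bars), for each library. Gata1 is at 33.7% and 32.1% where 34.0% and 32.6% were expected, while Hbb-bt is at 33.2% and 31.5% where 88.8% and 93.9% were expected.

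A small share of cells carried much of the globin. The 1% of cells with most UMIs of a gene held 22.7% and 28.5% of all Hbb-bs UMIs, and 33.7% and 37.3% of Hbb-bt. For Gata1, Gata2, Klf1, Car1 and Car2 the same share of cells held from 3.86% (Car1) to 6.20% (Car2), and for Zfpm1, which had fewer UMIs, 10.6% and 9.96%. The median cell had 8 and 6 globin UMIs, and the cells with most had 1967 and 2664. No globin UMI was seen in 318 cells (4.86%) and 501 cells (7.08%), which were shallower, with medians of 3100 and 6102 UMIs.

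The mix of globin genes was not the same in cells with little and with much globin. In the 469 cells of the library labelled Usp18+/f with exactly 1 globin UMI, 51.6% of those UMIs were Hba-a1 (47.0 to 56.2) and 23.7% Hbb-bs (19.9 to 27.8). In the 207 cells with over 200 globin UMIs, 24.0% were Hba-a1 (23.8 to 24.3) and 54.4% Hbb-bs (54.0 to 54.7). The library labelled Usp18+/Δ gave the same order, from 49.4% Hba-a1 (45.7 to 53.2) and 23.5% Hbb-bs (20.4 to 26.7) in 712 cells with 1 globin UMI to 19.2% Hba-a1 and 56.1% Hbb-bs in 235 cells with over 200. The β share of globin UMIs was 36.7% and 40.6% in cells with 1 globin UMI and 71.7% and 76.1% in those with over 200. The β globins made up 45.9% and 53.9% in cells with 6 to 10 globin UMIs and 64.9% and 71.6% in cells with 11 to 50. They were thus the majority at 11 to 50 in both libraries, and at 6 to 10 only in that labelled Usp18+/Δ. Cells with over 10 globin UMIs, 43.6% and 37.2% of cells, held 93.4% of the globin UMIs in both libraries. Whether the low counts come from free RNA was not tested.

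**Figure D3:**
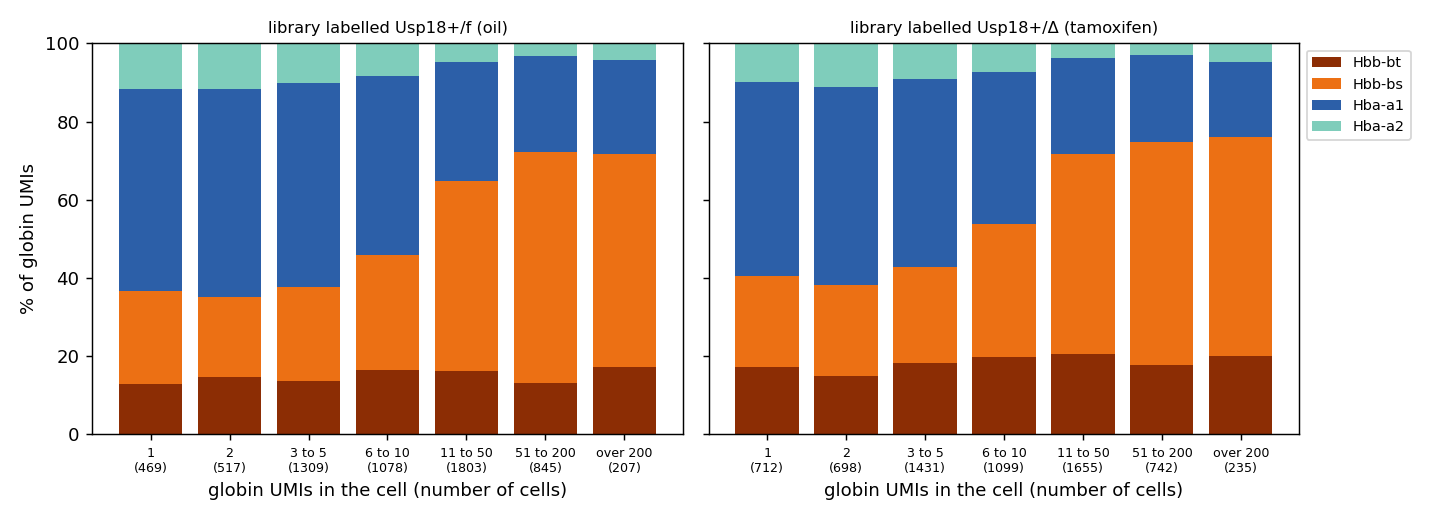
Percent of globin UMIs from each of the 4 globin genes, in cells grouped by their number of globin UMIs (number of cells in brackets), for each library. Hba-a1 makes up 51.6% and 49.4% in cells with 1 globin UMI, and Hbb-bs 54.4% and 56.1% in cells with over 200.

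Cells rich in β globin differed widely in which β gene they used. Among cells with at least 50 β globin UMIs (802 and 792), the Hbb-bt share of β UMIs had a median of 4.62% and 9.44% and ran from 0% to 100%. It was at most 10% in 477 cells (59.5%) and 401 cells (50.6%), and at least 90% in 34 cells (4.24%) and 39 cells (4.92%). The SD over cells was 26.7 and 28.5 percentage points, where counting error at 50 UMIs gives at most 7.07. The Hba-a2 share of α UMIs in cells with at least 50 of them varied much less, with medians of 12.2% and 13.9% and SDs of 6.18 and 8.33 points over 308 and 296 cells. The α copies share most of their 3′ windows, so how far their split reflects transcription cannot be told apart from how reads were assigned. Over all cells Hbb-bt made up 22.4% (22.2 to 22.6) and 26.3% (26.1 to 26.6) of β UMIs.

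**Figure D4:**
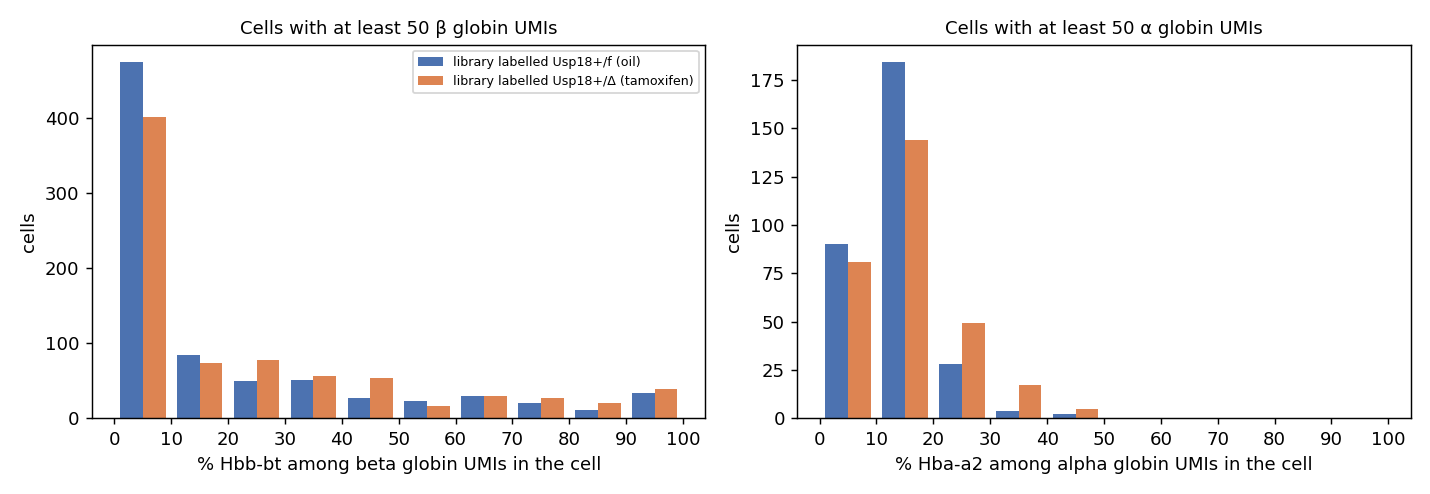
Number of cells by their percent of Hbb-bt among β globin UMIs (left, cells with at least 50 of these) and of Hba-a2 among α globin UMIs (right, cells with at least 50 of those), in each library. Most cells on the left lie under 10% with a tail up to 100%, while all cells on the right lie under 50%.

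Cells with over 200 globin UMIs also held more RNA of other red cell genes and of several mast cell genes. Klf1, Zfpm1 and Car2 were at higher levels there in both libraries, Gata1 too with an interval that included 0 in 1 of them, and Gata2 over all cells but not outside 1 mast cell-like cluster. These 207 and 235 cells (3.16% and 3.32%) are the end of a range and not a type: 168 and 163 cells lay between 150 and 250, and the limit was set after seeing the data. CPM were computed here without globin UMIs, and median depths were 8789 and 7463 UMIs against 8574 and 8039 in all other cells. Alas2, the erythroid enzyme of the opening step of haem synthesis, was seen in 46.4% (39.4 to 53.4) and 53.2% (46.6 to 59.7) of these cells, against 3.20% (2.78 to 3.67) and 3.67% (3.24 to 4.14) of the others. Slc4a1, the band 3 anion exchanger, was seen in 10.1% and 20.9% of these cells against 0.379% and 0.322% of the others. The erythroid markers Alas2, Hemgn, Bpgm, Slc4a1, Epb42 and Rhag were all 6 higher in these cells in both libraries, with log2 ratios from 0.51 for Bpgm (-0.02 to 0.99) to 7.60 for Slc4a1 (6.97 to 8.29). Even so, the median cell over 200 had no UMI of Hemgn, Bpgm, Slc4a1 or Epb42 in either library.

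Car2 was higher in each step up in globin shown here: it was at 550 and 413 CPM in cells with no globin UMI, 716 and 686 CPM in cells with 11 to 50, and 1211 and 1369 CPM in cells with over 200, against 686 and 613 CPM in all cells at or under 200. Klf1 was at 258 and 214 CPM in cells with over 200 globin UMIs against 161 and 141 CPM in the others, log2 ratios of 0.68 (0.54 to 0.81) and 0.60 (0.45 to 0.75). Zfpm1 gave 0.53 (0.25 to 0.81) and 0.73 (0.49 to 0.97), Gata2 0.32 (0.19 to 0.46) and 0.52 (0.39 to 0.65), and Gata1 0.28 (0.12 to 0.45) and 0.12 (-0.06 to 0.30). Car1 was not higher, with -0.21 (-0.26 to -0.16) and -0.02 (-0.07 to 0.03). Tfrc, the transferrin receptor, was at 221 and 170 CPM against 78.4 and 71.9 CPM. Kit was lower, at 71.0 and 64.1 CPM against 98.0 and 104 CPM, and the proliferation gene Mki67 was at 645 and 526 CPM against 547 and 501 CPM, although fewer of these cells had a UMI of it (53.1% and 41.3% against 67.1% and 59.7%), so no order is read for it. In 98.1% and 98.3% of these cells at least 1 of the 4 regulators had a UMI.

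Several but not all mast cell genes were higher in the same cells. Mcpt2, a mast cell protease, was at 696 and 428 CPM in cells with over 200 globin UMIs against 80.6 and 47.8 CPM in the others, log2 ratios of 3.11 (3.02 to 3.20) and 3.16 (3.05 to 3.28). Mcpt1 gave 2.26 (2.17 to 2.34) and 2.31 (2.19 to 2.43), and Csf2rb2, a cytokine receptor gene, 2.47 (2.28 to 2.65) and 2.76 (2.63 to 2.89). In the library labelled Usp18+/f all these were above Bpgm, Epb42 and Rhag, and Mcpt1 was close to Hemgn (2.22). In the library labelled Usp18+/Δ Mcpt1 was below Epb42 (2.49) and Hemgn (2.49). Alas2 (4.59 and 4.86) and Slc4a1 (5.54 and 7.60) were above them in both. Of the 12 mast cell and basophil markers, 10 and 9 were higher in these cells, 7 and 6 with an interval above 0. The other 2 and 3 were lower, 1 in each library with an interval below 0 (Ms4a2 and Tpsb2), and Tpsb2 was at 0 in these cells of both libraries. The summed list was at 3529 and 3112 CPM against 1869 and 2023 CPM, log2 ratios of 0.92 (0.88 to 0.95) and 0.62 (0.58 to 0.66).

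The split was repeated outside the mast cell-like cluster described further on (cluster 3), which left 125 and 99 cells with over 200 globin UMIs. There Car2 gave log2 ratios of 0.88 (0.81 to 0.95) and 1.14 (1.06 to 1.21), Klf1 0.77 (0.62 to 0.92) and 0.59 (0.40 to 0.78), Zfpm1 0.70 (0.39 to 0.99) and 0.60 (0.26 to 0.92), and Gata1 0.33 (0.15 to 0.51) and 0.27 (0.05 to 0.48). Gata2 was not higher there, at -0.24 (-0.44 to -0.05) and -0.14 (-0.37 to 0.08), while within cluster 3 it gave 0.50 (0.30 to 0.70) and 0.57 (0.40 to 0.75). Of the mast cell genes, Mcpt2 gave less outside the cluster than over all cells, 1.95 (1.78 to 2.13) and 1.31 (0.87 to 1.71), as did Csf2rb2 with 1.70 (1.31 to 2.07) and 1.49 (1.02 to 1.92), while within it Mcpt2 gave 2.42 and 2.04 and Csf2rb2 1.25 and 1.46. Alas2 was higher on both sides, with 4.25 and 4.74 outside the cluster and 3.78 and 3.67 within it. Zfpm1 within the cluster was at -0.27 (-1.11 to 0.47) and 0.66 (0.28 to 1.03).

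**Figure D5:**
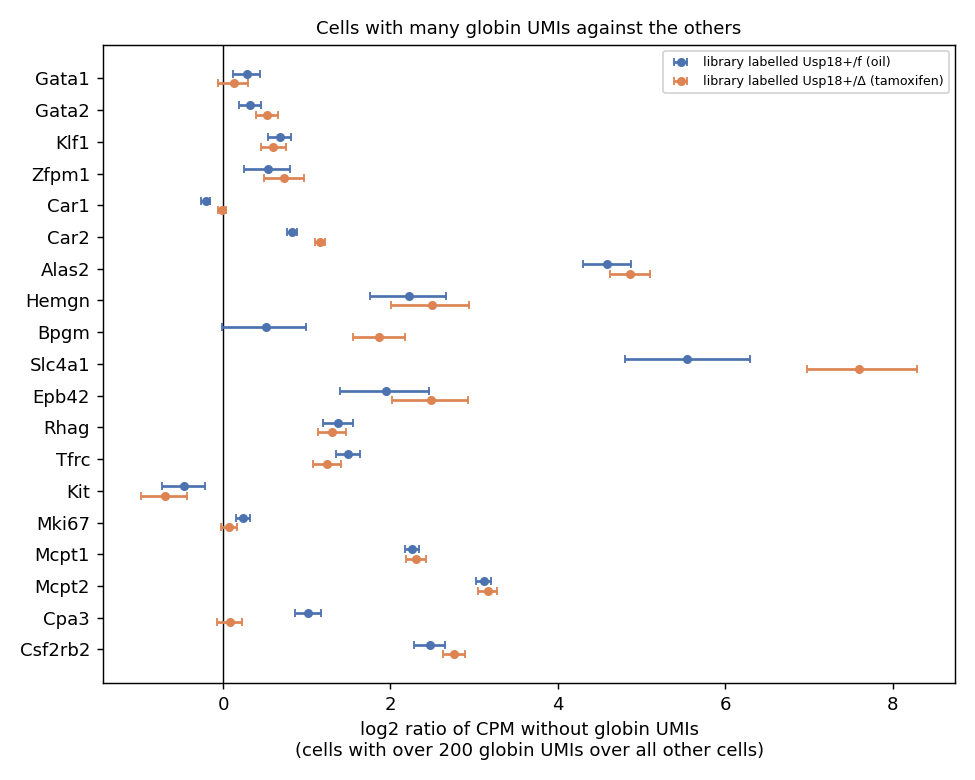
Log2 ratio of CPM, computed without globin UMIs, in cells with over 200 globin UMIs over all other cells of the same library, for 6 of the genes described here, 6 erythroid markers, Tfrc, Kit, Mki67 and 4 genes that led cluster 3 (Mcpt1, Mcpt2, Cpa3 and Csf2rb2). Bars are exact 95% intervals for counting error; Alas2 and Slc4a1 lie furthest to the right, Mcpt2 is at 3.11 and 3.16, and Kit lies left of 0 in both libraries.

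Depth separated the classes in another way. In both libraries summed globins were highest in cells of 1500 to under 3000 UMIs, at 9537 and 13595 CPM, and next in cells of 3000 to under 6000, at 9233 and 9022 CPM, against 3005 and 2491 CPM in cells with 12000 or more. Gata2 was also highest in cells of that range, with 298 and 431 CPM against 170 and 167 CPM in cells with 12000 or more. Gata1 was at 143 and 81.0 CPM in those shallow cells (196 and 293) and at 150 and 147 CPM in the deepest, so the libraries differed in the shallow cells. There Klf1 had a log2 ratio of -1.02 (-1.57 to -0.48), Car2 of -0.86 (-1.11 to -0.61) and Zfpm1 of -0.90 (-1.85 to 0.03). Car1, higher in the library labelled Usp18+/Δ over all cells, was lower in these cells (-0.76, -0.91 to -0.60) and in those under 1500 UMIs (-0.48, -0.83 to -0.14). In the cells under 1500 UMIs (260 and 57) summed globins were at 2107 and 7465 CPM, so the shallowest cells of the libraries were unlike each other.

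Cells were then clustered without the 10 genes, so that levels could be read in groups that they did not define. Of 9 clusters, 6 had at least 50 cells in each library. In these 6, the summed globins spanned a 5.81-fold range, from 2453 CPM in cluster 1, led by histone genes of S phase, to 14256 CPM in cluster 3. Cluster 3 (750 and 1616 cells, median 5129 UMIs) was mast cell-like by Cpa3, Mcpt2, Mcpt1, Mcpt4 and Cma1 among its 10 leading genes, and was also led by the cytokine receptor gene Csf2rb2. Gata2 was highest in the same cluster, at 335 CPM, and spanned 2.10-fold over the 6 clusters. The other regulators and anhydrases spanned 1.13-fold for Car1, 1.30-fold for Klf1, 1.37-fold for Car2, 1.54-fold for Gata1 and 1.54-fold for Zfpm1. Gata1 was lowest in cluster 3, at 103 CPM, and highest in cluster 4, at 159 CPM, led by the mitotic genes Cenpf, Prc1 and Aurka. Genes that lead cluster 3 differed between the libraries, so its size in each is not compared. Of the cells with over 200 globin UMIs, 39.6% and 57.9% were in cluster 3 against 10.5% and 21.6% of the others, and 72.5% and 74.9% of them had no Cpa3 UMI, against 75.1% and 66.3% of the others.

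Within clusters the direction of the library difference held for some genes and not for others. Klf1 and Gata2 were lower in the library labelled Usp18+/Δ in 6 of 6 clusters, with 4 and 3 intervals below 0, and Zfpm1 and Car1 were higher in 6 of 6, with 3 and 5 intervals above 0. Car2 was lower in 5 of 6 and Gata1 in 5 of 6. The α globins were lower in 6 of 6 clusters, with log2 ratios from -0.60 to -0.22 and all 6 intervals below 0. The β globins were lower in 5 of 6, against their higher sum over all cells, and the summed globins were lower in 6 of 6 with 5 intervals below 0. With the clusters weighted alike in both libraries, the summed globins had a log2 ratio of -0.14 and Hbb-bt of 0.10, in place of 0.07 and 0.39. In cells without a Cpa3 UMI (4908 and 4709), Hbb-bt had 0.47 (0.45 to 0.50), while in the upper part of the cells with Cpa3 (722 and 1279) it had -0.02 (-0.06 to 0.03). Mouse, capture and treatment cannot be told apart in any of these differences.

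Across cells the globins went together and the regulators did not. Pearson's r between pairs of globins, on log values of UMIs per 10000 in 6090 and 6723 cells of at least 3000 UMIs, ran from 0.36 to 0.68 and from 0.40 to 0.71. Among the 6 regulators and anhydrases the 15 pairs ran from -0.09 to 0.12 over both libraries, and the 24 pairs of these with globins from -0.21 to 0.22. These are descriptions over cells that share a library and a depth, and low counts hold r near 0. Of 5974 genes compared, those most like the summed globins were Ftl1, the ferritin light chain (r = 0.32 and 0.35), Csf2rb2 (0.29 and 0.37), Mcpt2 (0.25 and 0.27), Mllt3 (0.25 and 0.32) and Csf2rb (0.24 and 0.31). Most like Car2 were Prdx2, a peroxiredoxin abundant in red cells (0.36 and 0.43), Rps2, Fth1, Rps27l and Ran. Car1 was nearest to Hsp90aa1 (0.23 and 0.24), Srgn, Ppia, Tac2 and Bex4. Gata1 was nearest to Stmn1 (0.14 and 0.18), Ptma, Mki67, Hmgb2 and Smc2, and Klf1 to Mki67 (0.16 and 0.14), Top2a, Prc1, Smc2 and Kif11, mostly genes of cycling cells. These values leaned on depth: in cells thinned to 3000 UMIs Gata1 with Stmn1 gave 0.061 and 0.065 and Klf1 with Mki67 0.051 and 0.047, and Hmgb2 and Smc2 for Gata1 and Prc1, Smc2 and Kif11 for Klf1 were no longer among the nearest 5. Gata2 was nearest to Malat1 (0.23 and 0.20), Il1rl1, Id2, Neat1 and Tph1. For Zfpm1 the nearest genes, Abcb10, Cd81, Csf2rb, Tmem14c and Tspan33, had r of at most 0.08. After thinning, r was 0.24 and 0.29 for the summed globins with Ftl1, 0.25 and 0.33 with Csf2rb2, 0.19 and 0.24 for Car2 with Prdx2, 0.13 and 0.17 for Car1 with Hsp90aa1, and 0.16 in both libraries for Gata2 with Malat1. Mllt3 and Csf2rb for the globins, Il1rl1 and Tph1 for Gata2, Rps27l for Car2 and all but Abcb10 for Zfpm1 were then no longer among the nearest 5.

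Other genes of the pathway had list medians close to 0 between the libraries, and their counts past 0.25 are to be read beside the 7.6% of all genes. Of 18 GATA1 partners and haematopoietic regulators, 16 were measured, none was past 0.25 and the median log2 ratio was -0.07. Runx1 (568 and 539 CPM), the globin repressor gene Bcl11a (239 and 225 CPM) and Myb (237 and 226 CPM) were the most abundant. Haem synthesis had 13 genes measured and a median of -0.05, with only Alas2 past 0.25, at 6.89 and 9.90 CPM and a log2 ratio of 0.52 (0.34 to 0.71). The mitochondrial membrane protein gene Tspo (510 and 522 CPM) and Cpox (280 and 273 CPM), an enzyme late in the pathway, were the most abundant there. Erythroid surface and membrane skeleton genes had 13 measured of 17 and a median of -0.07, with only the water channel gene Aqp1 past 0.25, at 8.25 and 6.42 CPM (-0.36, -0.56 to -0.16).

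Late erythroid genes were mostly low. Of the 13 in the files 9 reached 5 CPM and 3 of these were past 0.25, a larger share than that of all genes in a list this short: Alas2 and Tspo2 (34.3 and 41.6 CPM, log2 ratio 0.28) were past 0.25 higher and Hemgn (6.37 and 5.21 CPM, -0.29) lower, and the median was -0.04. None of the 9 other globin genes reached 5 CPM: the embryonic Hbb-y had 14 and 12 UMIs and Hbb-bh1 51 and 13, while Hba-x and Mb had none, which allows up to 0.0517 and 0.0504 CPM. Among 14 other carbonic anhydrases 4 were measured, led by Car7 at 57.9 and 49.2 CPM, and 1 of the 4, Car13, was past 0.25 lower (15.9 and 13.2 CPM, -0.27). Among 21 other GATA, FOG and KLF genes 10 were measured with a median of -0.07, and 2 of the 10, Klf6 (69.6 and 57.4 CPM, -0.28) and Gata3 (101 and 84.6 CPM, -0.25), were past 0.25 lower. Of these lists, none had more than 2 genes past 0.25 in 1 direction.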

How the data were processed

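The authors prepared libraries with the 10x Genomics 3′ V3 chemistry and, per the file headers, counted them with Cell Ranger 3.0.2. The deposited values are raw UMI counts per gene and barcode, with mm10 as the build named in the submitters' processing notes. Cells entered with 500 or more genes detected and no more than 10% of UMIs from mitochondrial genes. Scrublet (scanpy 1.11.5, expected rate 6%) marked only 0.0436% and 0.027% of cells by its own threshold, so the cells above the 95th percentile of its scores, 340 and 333, were removed. The libraries shared 15 barcode sequences. UMIs were summed per library and scaled to CPM, with exact Poisson, Clopper-Pearson and conditional 95% intervals (scipy 1.17.1), which cover counting error only. A count of 0 allows up to 3 UMIs. Cells were thinned without replacement to 3000 UMIs. Both libraries were clustered together (2000 variable genes without the 10 genes, other globins, interferon-stimulated and sex genes; 30 components, 20 neighbours, Leiden resolution 0.8). Functions were tested on simulated data. Of the 31053 genes, 30934 matched GENCODE vM21 by identifier. From each list the most abundant genes and those past 0.25 were named, and for each regulator, each anhydrase and the summed globins the 5 genes of highest r, taking the lower r of both libraries.

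The genes, lists and markers were chosen with earlier results of these data known. Tertiles of Cpa3 could not be used, because most cells had no Cpa3 UMI; the cells with Cpa3 were divided at their median instead. That division, the ranges of globin UMIs above 10, the per-cell shares and the split by cluster 3 were chosen after seeing the data. Alternatives changed the filters, doublet removal, averaging, scaling, thinning and clustering. Some items, among them single list genes, are not reported here.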

Additional observations from a re-analysis of the deposited data

How the results depend on the processing

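With 1 library per group no result has a replicate check. No paired analysis was possible because replicates are lacking in both groups, so that the values come from no test. Of the log2 ratios under alternatives, 49 stayed inside the counting interval of the reported value, 56 moved outside it and 12 reversed. At most 5% mitochondrial UMIs kept only 1013 and 732 cells, of which 25.5% and 6.28% were under 1500 UMIs; there the log2 ratio was 0.24 for Gata2, -0.046 for Car1, 0.90 for Hba-a1 and 0.95 for the summed α globins, all reversed, and -0.16 for Gata1, -0.33 for Klf1, 0.064 for Zfpm1, -0.33 for Car2 and 1.23 for the summed globins. Without the 1% of cells with most globin it reversed for the summed globins (-0.047), Hba-a2 (-0.18) and Hbb-bs (-0.024). With clusters weighted alike it reversed for the summed globins (-0.14), the β globins (-0.057), Hbb-bs (-0.11) and Hba-a2 (-0.13), and Gata2 was at -0.26 and Car1 at 0.090. In cells of at least 6000 UMIs the summed globins reversed (-0.018), and Gata2 was at -0.19, Car1 at 0.090 and Car2 at -0.11; this and the weighting were chosen after seeing the data. Averaging CPM over cells gave 0.052 for Car1, -0.18 for Car2, -0.14 for Gata1 and 0.19 for the summed globins. Median-of-ratios size factors gave 0.059 for Car1 and 0.052 for the summed globins, which were at 0.040 over all barcodes, 0.045 with likely doublets kept and 0.079 on a total without mitochondrial, ribosomal protein and haemoglobin genes. Hbb-bt ran from 0.10 (clusters weighted alike) to 1.41 (5% mitochondrial UMIs) over these alternatives. By subsets it lay below 0 in cells of 12000 or more UMIs (-0.09) and in the upper part of the cells with Cpa3 (-0.02). It was at 1.47 in cells of 1500 to under 3000 UMIs and at 3.56 in those under 1500. The causes were not tested. The share of genes past 0.25 was 4.46% at 20 CPM and 13.1% at 1 CPM. The fold ranges over clusters kept within 1.5 times at another resolution and seed. All 78 shares of cells moved with thinning depth or a limit of 2 UMIs.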
